A study of Homo sapiens with 12 samples.

Results

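The 37 genes described here act in autophagy and in the lysosome. They were chosen by function, from the transcription factors of the lysosome to the enzymes inside it, and were matched by symbol to the Ensembl identifiers of the deposited values, as 37 of 62703 genes. All 37 had a TPM (transcripts per 1000000 transcripts) of at least 1 in 3 or more libraries, and so entered the test together with the other genes of the 14639 that did. RNA of HK2 cells, an immortalised line from the proximal tubule of the human kidney, was sequenced as 12 libraries that make up 4 groups of 3, to ask how high glucose and the growth factor FGF9 affect these cells. The NG group had received a control vector and was kept in 5.5 mM glucose, and the HG group was exposed to 50 mM glucose. The si-FGF9 group received an siRNA against FGF9 in 5.5 mM glucose, and the HG+OE-FGF9 group a lentiviral vector that overexpresses FGF9, in 50 mM glucose. Elsewhere the text of the study calls the vector adenoviral and describes the NG medium as one with 50 mM mannitol. No siRNA without a target is described for the NG group, so that its difference from si-FGF9 includes any effect of the siRNA itself. Nor is a control vector described for the HG group. The difference of HG+OE-FGF9 from HG thus includes any effect of the vector itself, and that of HG from NG any effect of the control vector. All groups share 1 cell line, and nothing states that the 3 libraries of a group came from separate cultures, so that p-values measure the spread between these libraries, which may be technical.

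Autophagy delivers cytoplasm to the lysosome for breakdown. A kinase complex with ULK1 and ATG13 and a lipid kinase complex with BECN1 start a membrane that closes into an autophagosome, ubiquitin-like proteins of the ATG8 family are coupled to that membrane, and receptors such as SQSTM1 tie cargo to them. The lysosome is acidified by the V-ATPase, its membrane holds LAMP proteins, and cathepsins and glycosidases degrade what arrives. TFEB, TFE3 and MITF are related transcription factors that bind the promoters of many of these genes, and in the kidney tubule the pathway is known for clearing reabsorbed protein and damaged mitochondria.

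FGF9, the targeted gene, had a TPM of 3.34, 4.03 and 3.82 with overexpression and was listed at 0 in every other library, so that its knockdown could not be checked. Of 9 markers of renal epithelium 7 had a TPM of at least 1 in every library, while CDH1 was at 0.28 or less. Of 14 markers of the proximal tubule 10, LRP2, CUBN and SLC34A1 among them, were below 1 in every library. GGT1, of the same list, was at 71.65 to 195, highest in the si-FGF9 group. Markers of endothelium summed to a TPM of at most 0.15. Of the 5 leukocyte markers PTPRC, AIF1 and CD3E were below 1 in every library, CD14 reached 0.90 to 3.90, and CD68, which is itself a lysosomal membrane protein, 108 to 159. Of the podocyte markers, NPHS1 was below 1 in every library and PODXL was at 3.29 to 17.6, highest in the NG group. The 6 fibroblast markers, mostly LUM, summed to 62.4 to 89.2 in the NG group and to 11.6 to 41.0 elsewhere. Mitochondrial genes took 4.94% to 8.6% of the TPM in the si-FGF9 libraries and 11.3% to 15.6% in the others. Small nuclear and nucleolar RNAs summed to 5275 to 16630 in the HG+OE-FGF9 libraries and to at most 833 in the others. HG+OE-FGF9 replicates 1 and 2 were the closest libraries (median absolute log2 difference 0.037 over 1938 genes with a mean TPM of at least 50), followed by NG replicates 2 and 3 (0.054), against 0.085 to 0.49 for the other pairs within a group. HG replicate 3 was the HG library nearest to the mean of the NG group for 23 of the 37 members. The part of these differences in the results that follow was not tested, and in bulk RNA fewer cells of a kind and less RNA per cell cannot be told apart.

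Compared to the NG group, 7 of the 37 members fell in the HG group and 0 rose. The 7 were the transcription factor gene MITF, GABARAPL1 of the ATG8 family, UVRAG of the lipid kinase complex, the conjugation gene ATG5, LAMP2 and NPC1 of the lysosomal membrane, and ATP6V1A, the catalytic subunit of the V-ATPase. A gene was called where its log2 fold change was at least 1 in either direction with an unadjusted p under 0.01 (limma on log2(TPM + 1), all 12 libraries in one fit, a scale that understates the change of low genes). These 7 are 18.9% of the members, against 22.7% of all genes tested that were called lower in HG and 1.65% that were called higher, a share near the background. At a Benjamini-Hochberg adjusted p under 0.05 with no minimum fold, 14 members were lower (37.8%, against 40.5% of all genes) and 2 were higher, GABARAP and the cathepsin gene CTSD (5.41%, against 8.53%). At an unadjusted p under 0.05 in limma the counts were 18 lower (48.6%, against 45.0% of all genes) and 2 higher (5.41%, against 10.8%). The median log2 fold change was -0.37 over the members and -0.39 over all genes.

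In the si-FGF9 group 13 members fell and 0 rose. They were TFE3 and MITF of the transcription factors, MAP1LC3B and GABARAPL1 of the ATG8 family, BECN1, UVRAG and WIPI1 of initiation, ATG3, ATG5 and ATG16L1 of conjugation, and LAMP2, NPC1 and ATP6V1A of the lysosome. The 13 are 35.1% of the members, against 42.2% of all genes called lower and 5.36% called higher. By the adjusted p alone 22 members were lower (59.5%, against 57.7% of all genes) and 3 were higher (8.11%, against 11.6%), namely GABARAP, CTSD and the lysosomal channel gene MCOLN1. The counts were the same at an unadjusted p under 0.05 in limma, passed by 59.1% of all genes as lower and 12.3% as higher. The median log2 fold change was -0.55 over the members and -0.79 over all genes. The 3 NG libraries are the controls of both comparisons, which are therefore not independent of each other, and the HG libraries are shared with the comparison that follows.

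Between the HG+OE-FGF9 and HG groups 1 member was called, MCOLN1, which rose with FGF9 overexpression, and 0 fell. This is 2.70% of the members, against 2.94% of all genes called higher and 2.67% called lower. By the adjusted p alone 1 member was higher (against 4.82% of all genes) and 4 were lower (10.8%, against 4.71%), namely MITF, NPC2 and the cathepsin genes CTSA and CTSZ. At an unadjusted p under 0.05 in limma 4 were higher (10.8%, against 11.3% of all genes) and 7 lower (18.9%, against 16.9%). The median log2 fold change was -0.02 over the members and -0.13 over all genes. When only the 6 libraries of this comparison entered the fit, MCOLN1 was still called, but 0 members passed the adjusted p in either direction (0.799% of all genes passed as higher and 0.178% as lower). The same held without HG replicate 1, without HG+OE-FGF9 replicate 1 or 2, and with the closest libraries averaged. In these fits at most 2.49% of all genes passed as higher and 1.28% as lower. The 4 lower members thus depended on which libraries were in the fit.

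Many of the smaller differences depended on the scale of the libraries. Rescaling the TPM by the median of ratios moved the median of all genes, as a log2 fold change, from -0.39 to 0.00 for high glucose, from -0.79 to -0.01 for the siRNA and from -0.13 to -0.03 for overexpression. After it 1 member was called higher (GABARAP) and 1 lower (LAMP2) in HG, 2.70% of the members each, against 7.26% and 8.47% of all genes. With the siRNA 8 were called higher (TFEB, GABARAP, ATG7, MCOLN1, CTSD, GAA, HEXA and ATP6AP1) and 6 lower (MITF, GABARAPL1, UVRAG, LAMP2, NPC1 and ATP6V1A). These are 21.6% and 16.2% of the members, against 18.9% and 17.8% of all genes. With overexpression 1 was called higher (MCOLN1) and 0 lower, against 3.45% and 1.92% of all genes. The log2 fold change took the opposite sign for 18, 16 and 7 of the 37 members in these comparisons, for which no share over all genes is given here. It turned for 0 of the members called on the deposited scale. Rescaling moves the genes of a comparison by similar amounts, however, so that a fold change over the minimum could hardly turn. With the siRNA TFE3 and MAP1LC3B, called on the deposited scale, ended at -0.06 and -0.07. Correcting each library for the GC content of the genes likewise turned 0 of the called members. It left 1 member called lower with high glucose (NPC1, 2.70% of the members, against 3.06% of all genes, with 3.78% called higher). It left 3 higher and 5 lower with the siRNA (8.11% and 13.5%, against 12.3% and 12%), and 1 higher with overexpression (against 3.03%, with 2.18% called lower).

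**Figure D1:**
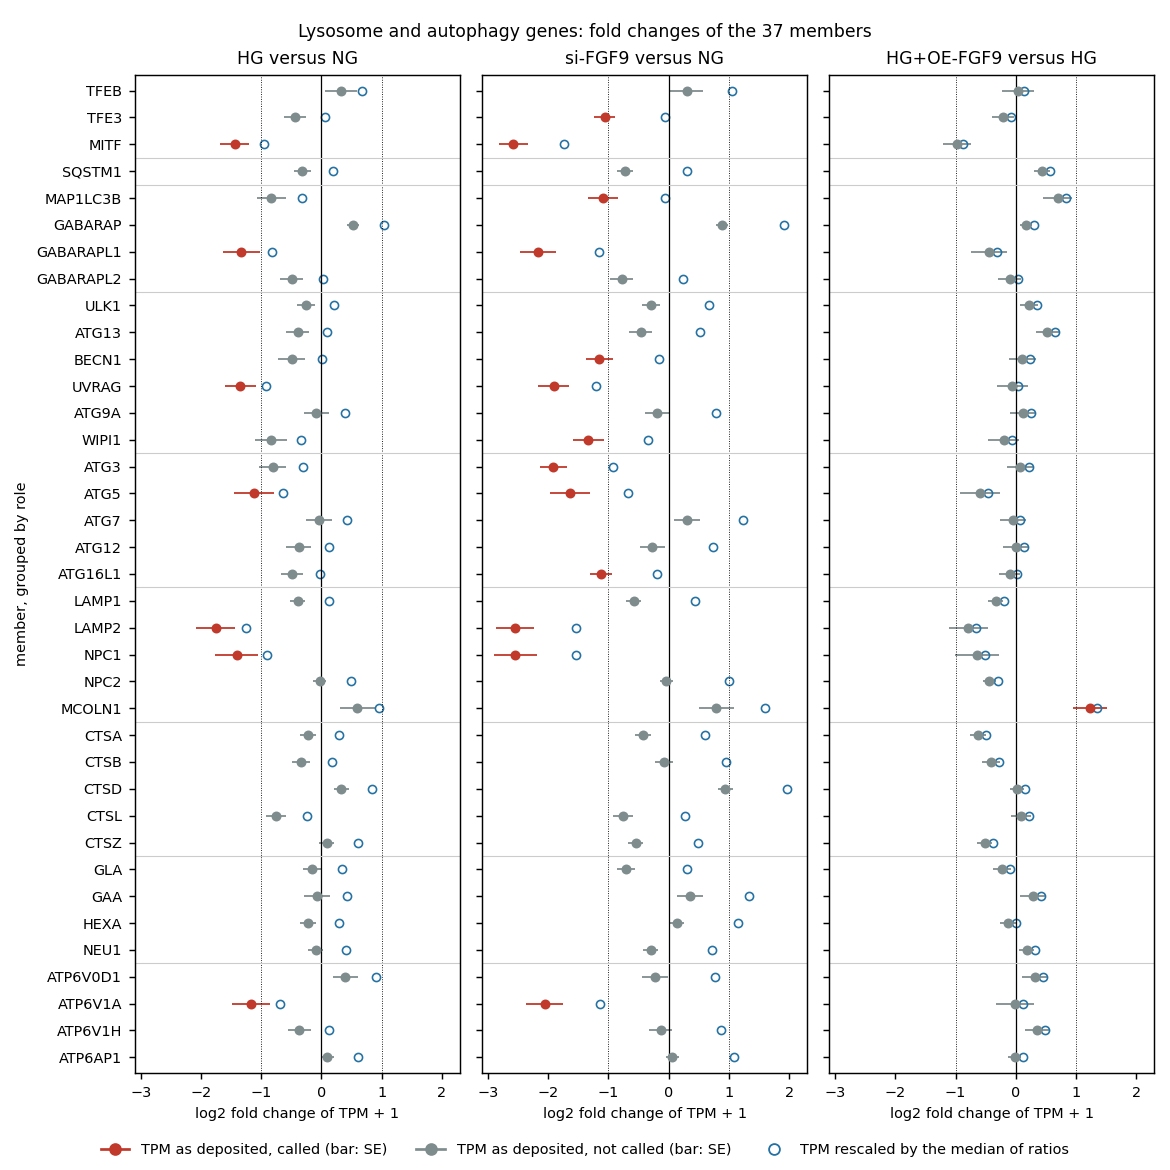
Log2 fold changes (x axis, log2 scale of TPM + 1) of the 37 members (y axis, grouped by role, grey lines between roles) in the 3 comparisons, from TPM as deposited (filled circles, red where called, with bars of 1 SE) and after rescaling by the median of ratios (open blue circles); dotted lines mark the minimum fold. In si-FGF9 versus NG the deposited values of LAMP2, NPC1 and MITF lie near -2.55, and nearly all open circles lie to the right of the filled ones.

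Among the transcription factors of the lysosome, MITF fell with high glucose and with the siRNA, whereas TFEB was low in all groups. MITF had a TPM of 15.3, 16.6 and 17.1 in the NG libraries, 6.70, 3.48 and 6.52 with high glucose, 1.81, 2.15 and 1.75 after the siRNA and 1.77, 1.91 and 3.23 with FGF9 overexpression. No MITF value outside the NG group reached those inside it, and the means were 2.94-fold lower in HG and 8.58-fold lower in si-FGF9. Its log2 fold change was -1.44 (SE 0.24), adjusted p = 0.00116 (limma), in HG. It was -2.58 (SE 0.24), adjusted p = 7.95e-06, in si-FGF9. The HG call was lost after rescaling (-0.96) and after the GC correction (-0.50), while the si-FGF9 call stayed at smaller values (-1.73 and -1.13). With FGF9 overexpression MITF was lower again than in HG, with a log2 fold change of -0.98 (SE 0.24) and an adjusted p of 0.0248, under the minimum fold. It was called when either HG replicate 2 (-1.23) or replicate 3 of the overexpression (-1.17) was left out. TFE3, the most abundant of these factors, had a TPM of 44.1, 49.5 and 48.7 in the NG libraries, 30.7, 30.6 and 44.4 with high glucose, 21.8, 19.3 and 25.8 after the siRNA and 27.5, 27.1 and 35.1 with FGF9 overexpression. TFE3 fell in si-FGF9 (-1.06 (SE 0.18), adjusted p = 0.000231), where all 3 libraries lay below all others, but after rescaling by the median of ratios this was -0.06, against -1.01 after the GC correction, and the call was lost without si-FGF9 replicate 2 (-0.97). In HG the TFE3 library of replicate 3 lay within the range of the NG group, and the difference did not pass (-0.44 (SE 0.18), adjusted p = 0.0627). TFEB had a TPM of 2.64, 2.49 and 2.58 in the NG libraries, 4.17, 5.28 and 1.73 with high glucose, 3.05, 3.04 and 4.15 after the siRNA and 4.11, 3.30 and 3.34 with FGF9 overexpression. The HG values of TFEB spread on both sides of the NG values, while those of the si-FGF9 and HG+OE-FGF9 groups all lay above them. No TFEB difference passed the test on the deposited scale (0.32, 0.30 and 0.04 in the 3 comparisons), while after rescaling it was called higher in si-FGF9 (1.06). The TPM of TFE3 was 2.90 ± 0.0618 (SD, n = 3) times that of MITF in NG, 6.73 ± 2.12 times with high glucose, 11.9 ± 2.88 times after the siRNA and 13.5 ± 2.39 times with FGF9 overexpression, a ratio within each library that scaling by library does not alter. The GC content of TFE3 is 59.8% and that of MITF 41.4%, and after the GC correction their log2 fold changes lay close together, at -0.57 and -0.50 with high glucose and at -1.01 and -1.13 with the siRNA.

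The site these factors are known to bind is the CLEAR element, the palindrome TCACGTGA around the E-box core CACGTG, and promoters that hold it are shown since they include that of MCOLN1, the member called with FGF9 overexpression. RefSeq promoters of GRCh38.p14, 250 bases before to 50 after each start, were given for 31 of the 37 members, and 6 of these genes (19.4%) held the palindrome on either strand, against 1.18% of 27305 genes in the table. The core, which every palindrome contains, was found in 8 of 31 (25.8%), against 8.77%. The members with the palindrome were ATG3, ATP6V0D1, CTSA, GAA, LAMP1 and MCOLN1, and CTSD and NEU1 held the core alone. The lines give 44 bases upstream of the start with the element in capitals, the first for MCOLN1 (chr19:7522564-7522607, plus strand), then LAMP1 (chr13:113297192-113297235, plus strand), GAA (chr17:80101486-80101529, plus strand), CTSA (chr20:45891291-45891334, plus strand), ATP6V0D1 (chr16:67481192-67481235, minus strand) and, with the core in capitals, CTSD (chr11:1763950-1763993, minus strand).
MCOLN1: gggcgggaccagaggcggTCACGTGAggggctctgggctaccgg
LAMP1: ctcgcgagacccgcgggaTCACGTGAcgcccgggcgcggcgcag
GAA: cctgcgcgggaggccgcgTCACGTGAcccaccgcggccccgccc
CTSA: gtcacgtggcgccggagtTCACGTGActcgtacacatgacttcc
ATP6V0D1: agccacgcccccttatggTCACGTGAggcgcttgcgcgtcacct
CTSD: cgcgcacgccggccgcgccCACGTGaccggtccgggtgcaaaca
For the genes in the order shown, the si-FGF9 versus NG comparison gave log2 fold changes of 0.79, -0.58, 0.35, -0.42, -0.23 and 0.94, and ATG3 one of -1.91. With overexpression they were 1.23, -0.33, 0.28, -0.63, 0.32 and 0.02. A match of letters is a description of these windows and not a bound site. The members were chosen by function, among genes that these factors are known to bind. Their higher share of the element is therefore no result of these data.

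The transcripts of the ATG8 family, the ubiquitin-like proteins that are coupled to autophagosome membranes, shifted from GABARAPL1 towards GABARAP in the 3 groups outside NG. GABARAP had a TPM of 337, 337 and 322 in the NG libraries, 438, 510.3 and 481 with high glucose, 614, 602 and 632 after the siRNA and 559, 534 and 506 with FGF9 overexpression. All 9 values outside the NG group lay above the 3 inside it. Its log2 fold change was 0.52 (SE 0.10), adjusted p = 0.00202 (limma), in HG and 0.89 (SE 0.10), adjusted p = 1.64e-05, in si-FGF9, under the minimum fold on the deposited scale and over it in both after rescaling (1.03 and 1.92). GABARAPL1, a close relative of GABARAP, had a TPM of 204, 219 and 206 in the NG libraries, 80.8, 51.3 and 136 with high glucose, 45.6, 58.5 and 35.9 after the siRNA and 51.9, 52.9 and 80.5 with FGF9 overexpression. Its values outside NG were all below those inside, and it fell by 2.34-fold in mean TPM in HG (log2 fold change -1.33 (SE 0.30), adjusted p = 0.0043) and by 4.49-fold in si-FGF9 (-2.17 (SE 0.30), adjusted p = 5.85e-05). The HG call rested on HG replicate 2, without which the log2 fold change was -0.99, and was lost after rescaling (-0.82) and after the GC correction (-0.90). In si-FGF9 GABARAPL1 was called in both (-1.15 and -1.39).

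MAP1LC3B, which encodes the LC3 protein read out in most autophagy assays, had a TPM of 128, 113 and 111 in the NG libraries, 58.3, 45.7 and 105 with high glucose, 56.2, 64.1 and 45.1 after the siRNA and 107, 109.9 and 102 with FGF9 overexpression. The HG+OE-FGF9 libraries lay near the NG group and above 2 of the 3 HG libraries, while HG replicate 3 lay among them. MAP1LC3B fell in si-FGF9 (-1.09 (SE 0.24), adjusted p = 0.00167), though by -0.07 after rescaling and -0.46 after the GC correction, and not called without si-FGF9 replicate 3 (-0.95), and was lower in HG without reaching the minimum fold (-0.83 (SE 0.24), adjusted p = 0.0147). Its difference between HG+OE-FGF9 and HG was 0.69 (SE 0.24), adjusted p = 0.0944, and it was called higher, at 1.03, in the fit without HG replicate 3. GABARAPL2 had a TPM of 155, 129.6 and 136 in the NG libraries, 98.7, 78.7 and 126 with high glucose, 82.5, 89.6 and 71.8 after the siRNA and 82.5, 83.0 and 116 with FGF9 overexpression. The NG libraries held its 3 highest values, but the lower levels in HG (-0.49) and si-FGF9 (-0.78) became 0.02 and 0.24 after rescaling and 0.40 and 0.60 after the GC correction. MAP1LC3B2, a near-identical copy of MAP1LC3B whose reads could be exchanged with it, was listed at 2.47 to 9.40.

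Measured per length within each library, so that scaling by library has no part in it, GABARAP made up 40.9, 42.2 and 41.5% of the summed TPM of the 4 ATG8 members in NG, 64.8, 74.4 and 56.7% with high glucose, 76.9, 73.9 and 80.5% after the siRNA and 69.8, 68.5 and 62.9% with FGF9 overexpression. The share of GABARAPL1 was 26.3 ± 1.34% (SD, n = 3) in NG, 11.8 ± 4.31% with high glucose, 5.82 ± 1.31% after the siRNA and 7.76 ± 1.96% with FGF9 overexpression. For both genes the shares in NG did not overlap those of any other group. Their GC contents are 49.8% and 47.8%, and the GC correction left them apart (1.55 and -1.39 in si-FGF9, 0.84 and -0.90 in HG). The share of MAP1LC3B was 14.7 ± 0.696% in NG, 9.21 ± 2.88% with high glucose, 6.89 ± 1.07% after the siRNA and 13.4 ± 0.720% with FGF9 overexpression, and here all 3 HG+OE-FGF9 libraries lay above all 3 HG libraries. The 4 genes summed to a TPM of 799 ± 24.4 in NG, 737 ± 96.5 with high glucose, 799 ± 14.6 after the siRNA and 795 ± 13.0 with FGF9 overexpression. Exons of other annotated genes cover 55.7% of the exon bases of GABARAP in GENCODE release 29. The higher of the overlapping genes was listed at 17.95 at most, in si-FGF9 replicate 3, against 322 or more for GABARAP. Any part of the overlap in these values was not tested.

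SQSTM1, the p62 receptor that carries ubiquitinated cargo into autophagosomes, had a TPM of 296, 285 and 275 in the NG libraries, 209.9, 204 and 280.0 with high glucose, 157, 168 and 194 after the siRNA and 313, 308 and 307 with FGF9 overexpression. The HG+OE-FGF9 libraries held its 3 highest values and the si-FGF9 libraries the 3 lowest. SQSTM1 was lower in si-FGF9 on the deposited scale (-0.72 (SE 0.14), adjusted p = 0.000477, limma), under the minimum fold. The sign turned to 0.31 after rescaling, while after the GC correction the difference was -0.56 (adjusted p = 0.00968). Between HG+OE-FGF9 and HG the difference was 0.43 (SE 0.14), adjusted p = 0.0665, with no overlap between the groups.

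**Figure D2:**
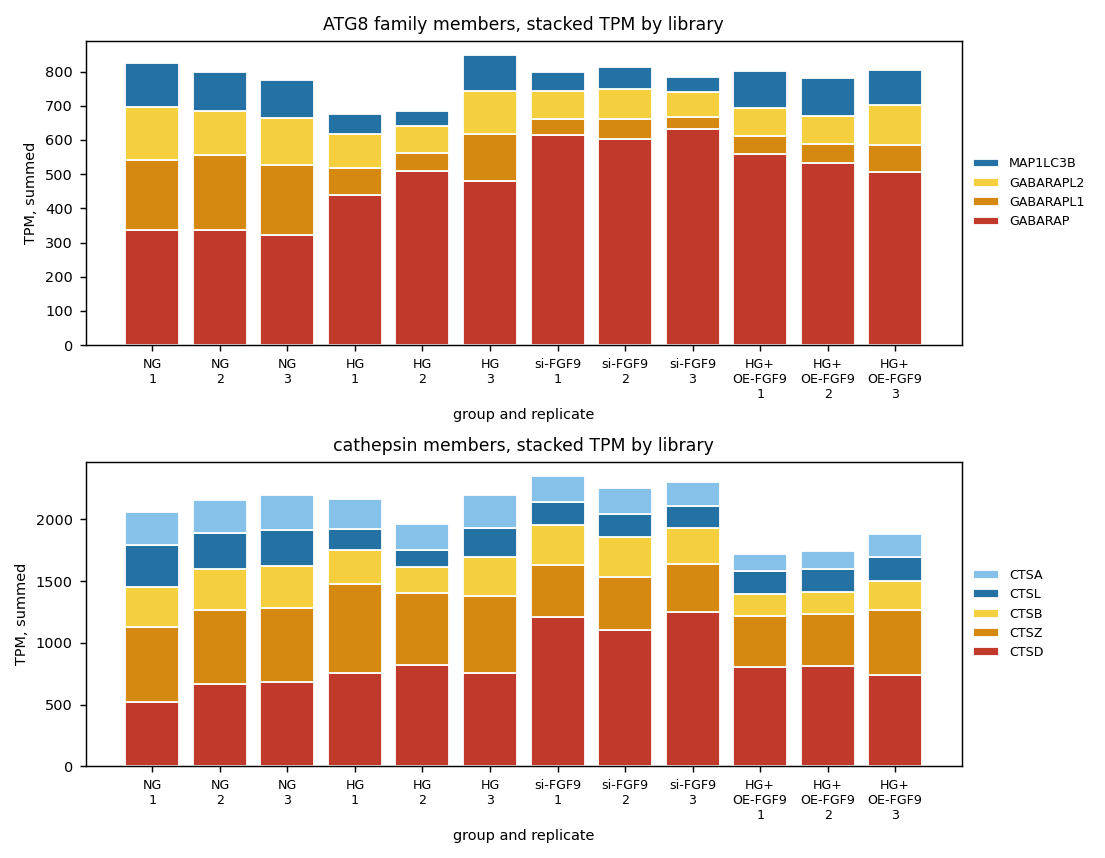
Stacked TPM (y axis, summed TPM) of the 4 ATG8 family members (upper panel) and the 5 cathepsin members (lower panel) in each of the 12 libraries (x axis, group and replicate). The GABARAP and CTSD parts (red) are larger outside the NG group, while the height of the bars varies less, from 676 to 848 TPM for the ATG8 family.

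Of the 6 members that initiate the autophagosome, UVRAG fell in both HG and si-FGF9, and BECN1 and WIPI1 fell in si-FGF9. Of all genes tested 22.7% were called lower in HG and 42.2% in si-FGF9. UVRAG, a partner of BECN1 in the lipid kinase complex, had a TPM of 5.31, 6.52 and 6.70 in the NG libraries, 1.71, 1.02 and 3.06 with high glucose, 1.16, 1.11 and 0.510 after the siRNA and 1.40, 1.48 and 2.32 with FGF9 overexpression. The highest value outside NG was 3.06 and the lowest inside it 5.31, and the means were 3.20-fold lower in HG (log2 fold change -1.35 (SE 0.26), adjusted p = 0.00207, limma) and 6.67-fold lower in si-FGF9 (-1.91 (SE 0.26), adjusted p = 4.99e-05). UVRAG had the lowest mean of the members in every group but NG, and its call did not depend on any single library in either comparison. The HG call was lost after rescaling (-0.92) and after the GC correction (-0.86), while in si-FGF9 it was called in both, at -1.21 and -1.06. BECN1 had a TPM of 41.7, 35.0 and 33.9 in the NG libraries, 35.2, 21.8 and 22.4 with high glucose, 16.8, 18.6 and 13.0 after the siRNA and 25.1, 23.8 and 36.2 with FGF9 overexpression. The si-FGF9 libraries were its 3 lowest (-1.15 (SE 0.22), adjusted p = 0.000602), but the difference was -0.16 after rescaling and -0.14 after the GC correction, with the call lost in both. WIPI1, which reads the lipid made by that complex, had a TPM of 30.2, 32.3 and 32.1 in the NG libraries, 15.3, 11.7 and 28.6 with high glucose, 10.2, 12.01 and 13.9 after the siRNA and 14.1, 12.9 and 18.1 with FGF9 overexpression. HG replicate 3 lay near the NG group and the other 2 HG libraries near the si-FGF9 group, and WIPI1 fell in si-FGF9 (-1.33 (SE 0.26), adjusted p = 0.000716), but the difference was -0.35 after rescaling and -0.65 after the GC correction, with the call lost in both. ULK1, ATG13 and ATG9A, the membrane carrier of early autophagosomes, were not called in any comparison, with log2 fold changes between -0.46 (ATG13, si-FGF9) and 0.52 (ATG13, HG+OE-FGF9).

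Of the 5 conjugation genes, which couple ATG8 proteins to lipid, 3 fell in si-FGF9, ATG5, ATG3 and ATG16L1, where 42.2% of all genes tested were called lower. All 3 calls were lost after rescaling and after the GC correction. ATG7 and ATG12 were not called in any comparison on the deposited scale. ATG3, the enzyme that hands ATG8 proteins to the lipid, had a TPM of 65.9, 51.3 and 51.6 in the NG libraries, 37.4, 22.9 and 36.0 with high glucose, 13.1, 15.8 and 13.5 after the siRNA and 29.0, 28.3 and 44.2 with FGF9 overexpression. The si-FGF9 values were less than the lowest of any other group, and the means differed from NG by 3.98-fold (-1.91 (SE 0.22), adjusted p = 2e-05, limma; -0.92 after rescaling and -0.34 after the GC correction, not called in either). ATG5, part of the complex that aids ATG3, had a TPM of 30.6, 25.7 and 27.5 in the NG libraries, 13.5, 6.74 and 19.6 with high glucose, 9.82, 10.4 and 5.46 after the siRNA and 6.71, 6.59 and 10.4 with FGF9 overexpression. It fell in si-FGF9 (-1.64 (SE 0.33), adjusted p = 0.00082) and in HG (-1.13 (SE 0.33), adjusted p = 0.015), where the call was lost in 5 of the 6 fits that left out a library (-0.74 without HG replicate 2), and after the GC correction both were near 0 (-0.01 and -0.04). Rescaling also ended both calls (-0.67 and -0.63). ATG16L1, which places that complex on the membrane, had a TPM of 14.6, 15.0 and 14.5 in the NG libraries, 9.81, 8.46 and 12.6 with high glucose, 5.43, 7.43 and 5.86 after the siRNA and 8.78, 8.75 and 10.7 with FGF9 overexpression. Its 3 NG libraries were the highest and its 3 si-FGF9 libraries the lowest (-1.13 (SE 0.18), adjusted p = 0.000144), a call lost after rescaling (-0.19) and after the GC correction (-0.39). ATG7, the activating enzyme, had log2 fold changes of -0.04, 0.30 and -0.05 and was called higher in si-FGF9 after rescaling (1.23), and ATG12, the partner of ATG5, was called higher there only after the GC correction (1.38, against -0.27).

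In the lysosomal membrane, LAMP2 and NPC1 fell in HG and in si-FGF9, and LAMP1 and NPC2 were not called in either. LAMP2 (ENSG00000005893, chrX:120427827-120469365 of GRCh38, minus strand), which also serves chaperone-mediated autophagy, had a TPM of 134, 129.7 and 125 in the NG libraries, 39.0, 22.5 and 60.5 with high glucose, 22.2, 25.7 and 16.8 after the siRNA and 17.5, 17.4 and 31.8 with FGF9 overexpression. The lowest NG library was at 125 and the highest library of the other groups, HG replicate 3, at 60.5, and the means were 3.19-fold lower in HG and 6.01-fold lower in si-FGF9. The log2 fold change of LAMP2 was -1.76 (SE 0.32), adjusted p = 0.00163 (limma), in HG. It was -2.55 (SE 0.32), adjusted p = 2.95e-05, in si-FGF9. LAMP2 was called in both after rescaling (-1.25 and -1.54) and in neither after the GC correction (-0.64 and -0.90). In HG+OE-FGF9 the mean lay below that of HG (-0.79 (SE 0.32), adjusted p = 0.133), with overlap between the groups, and the call was reached when either HG replicate 2 (-1.15) or replicate 3 of the overexpression (-1.07) was left out. LAMP1 (ENSG00000185896, chr13:113297241-113323672, plus strand), the other major membrane glycoprotein, had a TPM of 228, 232 and 241 in the NG libraries, 188, 159 and 186 with high glucose, 158, 161 and 148 after the siRNA and 131, 129 and 163 with FGF9 overexpression. All its values outside NG were lower than those inside, but none of its differences reached the minimum fold (-0.40 in HG, adjusted p = 0.0206; -0.58 in si-FGF9, adjusted p = 0.00121), and both turned positive after rescaling (0.12 and 0.45). The ratio of LAMP1 to LAMP2 within a library was 1.70, 1.79 and 1.94 in NG, 4.83, 7.06 and 3.08 with high glucose, 7.12, 6.27 and 8.80 after the siRNA and 7.47, 7.44 and 5.15 with FGF9 overexpression, higher in all 9 libraries outside NG than in any inside it. The GC content of LAMP1 is 51.2% and that of LAMP2 37.7%, and the GC correction brought their log2 fold changes closer, to -0.00 and -0.90 in si-FGF9.

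NPC1 and NPC2 pass cholesterol out of the lysosome one after the other, NPC1 in the membrane and NPC2 in the lumen. NPC1 had a TPM of 89.1, 90.7 and 87.7 in the NG libraries, 27.3, 20.7 and 62.3 with high glucose, 12.8, 14.1 and 16.7 after the siRNA and 16.3, 15.9 and 34.0 with FGF9 overexpression. The NG libraries lay close together, the HG libraries ran from 20.7 to 62.3 with replicate 3 nearest to NG, and no si-FGF9 library was above 16.7. The log2 fold change of NPC1 was -1.41 (SE 0.36), adjusted p = 0.00727 (limma), in HG, where the call was lost, by its p, without HG replicate 1 (-1.28) and without HG replicate 2 (-1.09), and -2.55 (SE 0.36), adjusted p = 6.18e-05, in si-FGF9. It is the member whose fall was called in both comparisons with the GC correction (-1.11 and -1.91), while after rescaling it was called in si-FGF9 (-1.54) and not in HG (-0.90). NPC2 had a mean TPM of 581 ± 18.9 in NG, 571 ± 55.5 in HG and 567 ± 44.2 in si-FGF9 (SD, n = 3), with differences of -0.03 and -0.04 that did not pass (after rescaling they were 0.49 and 0.99), and of 421 ± 27.5 in HG+OE-FGF9, lower than HG by -0.44 (SE 0.11), adjusted p = 0.0309. The difference of NPC2 between HG+OE-FGF9 and HG no longer passed after rescaling (-0.30, adjusted p = 0.0872) or after the GC correction (-0.29, adjusted p = 0.0569). The ratio of NPC2 to NPC1 was 6.52 ± 0.202 in NG, 18.7 ± 7.82 with high glucose, 39.8 ± 7.99 after the siRNA and 21.2 ± 6.89 with FGF9 overexpression.

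MCOLN1 (ENSG00000090674, chr19:7522626-7534009 of GRCh38, plus strand), the channel that releases calcium from the lysosome, was the member that rose with FGF9 overexpression. It had a TPM of 2.14, 4.40 and 2.80 in the NG libraries, 5.59, 6.43 and 3.56 with high glucose, 7.02, 5.35 and 5.59 after the siRNA and 16.6, 15.8 and 8.73 with FGF9 overexpression. HG+OE-FGF9 replicates 1 and 2, the pair of nearly alike libraries, were highest, and replicate 3 was lower, yet above all 9 libraries of the other groups. The mean was 2.64-fold that of HG, with a log2 fold change of 1.23 (SE 0.28), adjusted p = 0.0203 (limma), 1.35 after rescaling, 1.18 after the GC correction and 1.02 to 1.5 when single libraries were left out, and it was called in each of these fits. Its adjusted p was over 0.05 without HG replicate 1, without either of the 2 nearly alike HG+OE-FGF9 libraries, and in the fit of the 6 libraries. MCOLN1 was also higher in si-FGF9 than in NG (0.79 (SE 0.28), adjusted p = 0.0252), under the minimum fold, and its difference between HG and NG did not pass (0.60 (SE 0.28), adjusted p = 0.1). Its exons share 6 bases with those of PNPLA6 on the same strand. PNPLA6 was at 35.2 to 47.7 in NG, 89.45 to 126 in HG, 168.5 to 227 in si-FGF9 and 75.6 to 85.1 in HG+OE-FGF9. Any part of this overlap in the values of MCOLN1 was not tested.

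**Figure D3:**
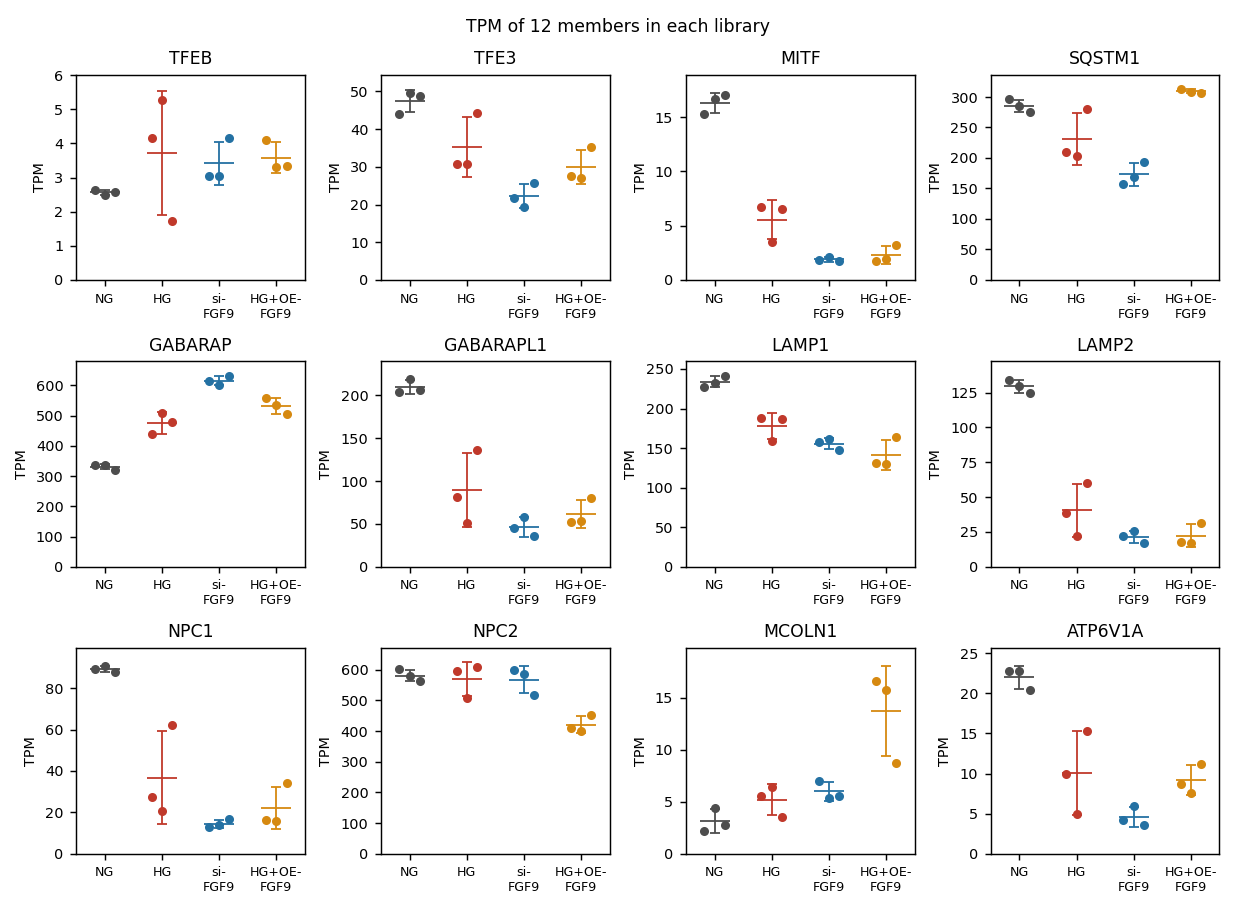
TPM (y axes, linear, from 0) of 12 members in each library (points), with the mean (horizontal mark) and SD (bars, n = 3) of each of the 4 groups (x axes). LAMP2, NPC1, MITF and GABARAPL1 have their 3 highest points in NG, GABARAP its 3 lowest, and MCOLN1 its 3 highest in HG+OE-FGF9.

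The cathepsins, the proteases of the lysosome, were not called in any comparison on the deposited scale with all libraries, but their proportions moved towards CTSD, the aspartic protease. CTSD had a TPM of 520.2, 663 and 686 in the NG libraries, 753, 822 and 759 with high glucose, 1208, 1105 and 1253 after the siRNA and 807, 813 and 741 with FGF9 overexpression. It was the most abundant member in the mean of every group, and all libraries outside NG lay above those inside it. Its log2 fold change was 0.33 (SE 0.12), adjusted p = 0.0397 (limma), in HG and 0.94 (SE 0.12), adjusted p = 3.41e-05, in si-FGF9, with NG replicate 1 the lowest library, and 0.02 between HG+OE-FGF9 and HG. After rescaling CTSD was at 0.84 in HG, not called, and at 1.97 in si-FGF9, called higher. On the deposited scale it was called in si-FGF9 without NG replicate 3 (1.01). CTSL, a cysteine protease, had a TPM of 335, 287 and 291 in the NG libraries, 176, 139 and 235 with high glucose, 182, 182 and 173 after the siRNA and 187, 185 and 197 with FGF9 overexpression. The NG libraries were its 3 highest, and it was lower in HG (-0.76 (SE 0.16), adjusted p = 0.00339) and in si-FGF9 (-0.76 (SE 0.16), adjusted p = 0.00132), but after rescaling the first was -0.24 and the second turned to 0.27. CTSB, another cysteine protease, had a TPM of 330.2, 331 and 339.6 in the NG libraries, 270.1, 214 and 316 with high glucose, 326, 330.0 and 294 after the siRNA and 179.6, 182 and 235 with FGF9 overexpression. Its 2 lowest values were in HG+OE-FGF9, with a difference from HG of -0.42 (SE 0.15) and an adjusted p of 0.104, and values of both groups overlapped. CTSA and CTSZ, both carboxypeptidases, had lower levels with overexpression than in HG, with no overlap, CTSA at 154 ± 25.3 against 237 ± 26.0 (-0.63 (SE 0.13), adjusted p = 0.0141) and CTSZ at 449.6 ± 63.5 against 642 ± 74.5 (-0.51 (SE 0.13), adjusted p = 0.025). Exons of other annotated genes cover 52.7% of the exon bases of CTSD. The overlapping genes were listed at 5.44 at most, and any part of the overlap in the values of CTSD was not tested.

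CTSD made up 25.3, 30.7 and 31.2% of the summed TPM of the 5 cathepsins in NG, 34.8, 41.8 and 34.6% with high glucose, 51.5, 49.0 and 54.4% after the siRNA and 46.9, 46.7 and 39.4% with FGF9 overexpression. The share of CTSL was 14.3 ± 1.73% (SD, n = 3), 8.64 ± 1.89%, 7.79 ± 0.275% and 10.7 ± 0.198% in the same order. The GC content of CTSD is 64.0% and that of CTSL 52.5%. After the GC correction the log2 fold change of CTSD was 0.03 in HG, against -0.55 for CTSL, and 0.71 with the siRNA, against -0.24. The summed TPM of the 5 was 2138 ± 71.1 in NG, 2107 ± 125 with high glucose, 2302 ± 45.2 after the siRNA and 1779 ± 86.7 with FGF9 overexpression, lowest in the last. Over all 37 members the sum was 5046 ± 21.6 in NG, 4561 ± 377 with high glucose, 4616 ± 66.2 after the siRNA and 4167 ± 185 with FGF9 overexpression.

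None of the 4 glycosidase genes was called in limma in any comparison, and their log2 fold changes on the deposited scale lay between -0.70 and 0.35. GLA and NEU1, which remove galactose and sialic acid, passed the adjusted p in si-FGF9 with lower levels (-0.70, adjusted p = 0.00106, and -0.30, adjusted p = 0.0487), and both turned positive after rescaling (0.31 and 0.71). GAA, the acid glucosidase of glycogen, and HEXA of ganglioside breakdown had log2 fold changes of 0.35 and 0.13 in si-FGF9 and were called higher after rescaling (1.34 and 1.15). Among the 4 V-ATPase members ATP6V1A stood apart. It had a TPM of 22.8, 22.8 and 20.4 in the NG libraries, 9.98, 4.93 and 15.3 with high glucose, 4.23, 5.98 and 3.57 after the siRNA and 8.72, 7.63 and 11.2 with FGF9 overexpression. The NG libraries held the 3 highest values and the si-FGF9 libraries 3 of the 4 lowest, with a log2 fold change of -1.17 (SE 0.31), adjusted p = 0.009, in HG, lost without HG replicate 2 (-0.78), and -2.06 (SE 0.31), adjusted p = 9.81e-05, in si-FGF9. The HG call was also lost in the fit of the 6 libraries and after rescaling (-0.69), and the GC correction ended both calls (-0.17 and -0.53), while in si-FGF9 rescaling left -1.13, still called. ATP6V0D1 of the membrane sector, ATP6V1H, which regulates the pump, and the accessory subunit ATP6AP1 were not called on the deposited scale, where the TPM of ATP6AP1 lay between 115 and 137 in all 12 libraries. After rescaling ATP6AP1 was called higher in si-FGF9 (1.09) and stood at 0.60 in HG, so that its even level depended on the scale.

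The members that fell tended to be those of low GC content. The GC content of the 37 genes, from the longest transcript of each in GENCODE release 29 on GRCh38, ran from 37.5% to 64.2%, and that of the called members from 37.7% to 50.3% in HG and from 37.7% to 59.8% in si-FGF9. Over the 37 members, which share their libraries, Spearman's rho of the log2 fold change with GC content was 0.62 for high glucose, 0.56 for the siRNA and 0.37 for overexpression, and 0.64, 0.57 and 0.29 over 14191 of the genes tested. LAMP2, with a GC content of 37.7%, went from -2.55 to -0.90 in si-FGF9 after the GC correction, and NPC1, at 50.3%, from -2.55 to -1.91. GABARAP, at 49.8%, went from 0.89 to 1.55 and was then called higher, as was NPC2 (1.08).

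**Figure D4:**
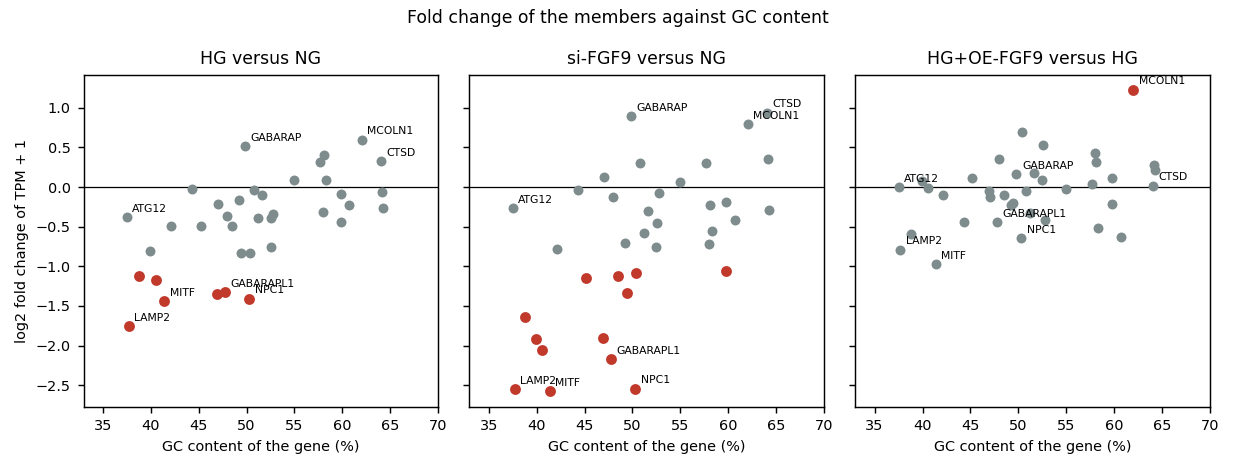
Log2 fold change (y axis, log2 scale of TPM + 1, TPM as deposited) of each of the 37 members against the GC content of its longest transcript (x axis, %), in the 3 comparisons, with called members in red. Spearman's rho over the members is 0.62, 0.56 and 0.37, and GABARAP in the first 2 panels lies above the members of like GC content.

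Outside the 37 members, 7 lists of other genes of the pathway held 167 genes, of which 160 were tested. With high glucose 2 of the 160 rose and 49 fell (30.6%). With the siRNA 7 rose and 70 fell (43.8%), and with overexpression 1 rose and 4 fell compared to HG, against the shares of all genes given above. After rescaling these counts were 12 and 10, 34 and 26, and 1 and 2, and after the GC correction 2 and 5, 14 and 15, and 1 and 2, so that the split between higher and lower genes depended on the scale. For all lists, the shares of all genes after rescaling and after the GC correction are those given with the members. The largest fall in initiation was that of RB1CC1, a partner of ULK1 and ATG13, from 21.2 ± 1.49 in NG to 4.73 ± 3.68 in HG (-2.14, adjusted p = 0.0019, limma) and 1.54 ± 0.560 in si-FGF9 (-3.15, adjusted p = 3.42e-05), and it was called after rescaling and after the GC correction too. Of the 14 other receptors of selective autophagy, 6 fell with high glucose (42.9%, against 22.7% of all genes). With the siRNA 8 fell (57.1%, against 42.2%) and 1 rose (7.1%, against 5.36%), and with overexpression 2 fell (14.3%, against 2.67%). After rescaling 4 fell with high glucose, and 5 rose and 4 fell with the siRNA, and after the GC correction 1 fell, and 2 rose and 3 fell. NCOA4, the ferritin receptor, went from 78.0 ± 7.45 in NG to 6.53 ± 1.5 in si-FGF9 (-3.40, adjusted p = 9.99e-06), while SEC62 of the endoplasmic reticulum rose from 40.8 ± 7.78 to 119 ± 13.6 (1.54, adjusted p = 0.00058). Both kept their calls after rescaling and after the GC correction. BNIP3, a mitochondrial receptor, fell from 374 ± 200.3 in HG to 101 ± 8.95 in HG+OE-FGF9 (-1.71, adjusted p = 0.00878), a call kept in both too.

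In the list of mTORC1 and nutrient sensing at the lysosome, 1 of 25 rose and 7 fell in HG (28.0%, against 22.7% of all genes) and 3 rose and 9 fell in si-FGF9 (36.0%, against 42.2%). The balance turned after rescaling, with 4 higher and 0 lower in HG and 6 higher and 3 lower in si-FGF9, and after the GC correction the counts were 0 and 0, and 5 and 2. LAMTOR4 and LAMTOR3, subunits of the same scaffold on the lysosome, moved in opposite directions in si-FGF9, LAMTOR4 from 92.6 ± 14.0 to 295 ± 16.0 (1.67, adjusted p = 7.99e-06, limma) and LAMTOR3 from 46.0 ± 5.48 to 6.80 ± 1.92 (-2.62, adjusted p = 5.69e-05). Both were called after rescaling (2.70 and -1.65), but after the GC correction LAMTOR4 was (1.72) and LAMTOR3 was not (-0.96). Of 16 other V-ATPase subunits tested 1 rose (6.2%, against 1.65% of all genes) and 3 fell (18.8%, against 22.7%) in HG. In si-FGF9 5 fell (31.2%, against 42.2%) and 0 rose. After rescaling 3 were higher and 1 lower in HG, and 5 higher and 1 lower in si-FGF9. The GC correction left 2 higher and 0 lower in each. ATP6V0D2 rose in HG+OE-FGF9 from 0.503 ± 0.716 in HG to 2.03 ± 0.501 (1.10, adjusted p = 0.0259). Its levels were near the floor, with means of 1.07 in NG and 0.513 in si-FGF9. ATP6V1C1, a subunit of the same sector as ATP6V1A, fell from 31.3 ± 4.85 in NG to 10.7 ± 3.90 in HG (-1.51, adjusted p = 0.00388) and 4.61 ± 1.86 in si-FGF9 (-2.58, adjusted p = 3.92e-05), and both calls were lost after the GC correction (-0.47 and -0.99). Among 40 other hydrolases and activators 9 fell in HG (22.5%), and 2 rose and 16 fell in si-FGF9 (40.0%), near the shares of all genes. After rescaling 3 rose and 0 fell in HG and 9 rose and 3 fell in si-FGF9, and after the GC correction 0 and 1, and 1 and 3. MAN2B1, a mannosidase, rose from 32.9 ± 0.615 in NG to 99.3 ± 9.91 in si-FGF9 (1.56, adjusted p = 1.4e-05), and the protease gene CTSS fell from 60.3 ± 13.6 to 10.1 ± 2.91 (-2.48, adjusted p = 1.07e-05). MAN2B1 kept its call after the GC correction (1.64) and CTSS lost it (-0.89).

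Genes of the lysosomal membrane and of enzyme sorting were called lower in 12 of 24 cases in HG (50.0%, against 22.7% of all genes) and in 15 of 24 in si-FGF9 (62.5%, against 42.2%), where 1 rose. After rescaling 1 was lower and 1 higher in HG and 7 were lower and 3 higher in si-FGF9, and after the GC correction 1 was lower in HG and 3 were lower and 2 higher in si-FGF9. IGF2R, the receptor that sorts new hydrolases to the lysosome, went from 73.7 ± 4.87 in NG to 11.3 ± 0.663 in si-FGF9 (-2.61, adjusted p = 4.63e-06, limma), and CD63, a membrane tetraspanin, rose from 1319.6 ± 73.8 to 2665 ± 67.1 (1.01, adjusted p = 2.49e-05), and both kept their calls after rescaling and after the GC correction. Of 19 genes of the fusion of autophagosomes with lysosomes, 5 fell in HG (26.3%, against 22.7% of all genes). In si-FGF9 7 fell (36.8%, against 42.2%), and 0 rose in either comparison in limma. After rescaling 3 were lower and 1 higher in HG and 5 lower and 4 higher in si-FGF9, and after the GC correction 1 was lower in HG and 2 lower and 2 higher in si-FGF9. EPG5, a tether, fell from 11.9 ± 0.315 in NG to 3.54 ± 2.47 in HG (-1.64, adjusted p = 0.00202), and VAMP7, a fusion protein, from 31.8 ± 2.33 to 4.31 ± 1.11 in si-FGF9 (-2.64, adjusted p = 7.05e-05). Both kept their calls after rescaling and after the GC correction.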

How the data were processed

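RNA of HK2 cells was measured in 12 libraries, which their labels divide into 4 groups of 3 (NG and HG without, si-FGF9 and HG+OE-FGF9 with, a change to FGF9). The authors deposited TPM per Ensembl gene, scaled to the same sum in each library. Quantification tool and annotation are not given in the sources used here; the processing notes of the submitters name Bowtie 0.12.2 and the mouse build mm8 with no role, while the identifiers are human. TPM keep no depth, so that counting error is unknown and precision was judged from the 3 libraries of a group. A further table of the series repeats the same values and was not used.

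Testing took in 14639 genes, those that reached a TPM of 1 in 3 or more libraries. Values on the log2(TPM + 1) scale were fitted by limma 3.58.1 (R 4.3.3), with a variance trend, group as the only term and all 12 libraries in one fit. A gene was called at a log2 fold change of at least 1 and an unadjusted p under 0.01, the criteria of the study, and p-values were adjusted over all genes tested. The fit was tested on simulated data. With 3 libraries against 3, an exact permutation test of a single gene cannot go below p = 0.1, so that none was run for single genes. Such tests were run on the shares, ratios and sums of TPM, with the same limit, and are not given. The correction for GC content subtracted a natural spline with 5 degrees of freedom from each library, over the 96.9% of genes with a GC content, and rescaling used the median of ratios over 15501 genes above 0 in all libraries. Tables and figures were made with Python 3.11.15, pandas 2.3.3 and matplotlib 3.10.9.

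The members and lists were chosen with earlier results of these data known, and the ratios and shares within a library after their values had been seen. Members given with the value of every library are those called with an adjusted p under 0.05 in any comparison, and TFEB, TFE3, MITF, SQSTM1, the ATG8 family, LAMP1, LAMP2, CTSB, CTSD and CTSL, and the others are given by means, counts or ranges. From the other lists, genes with the largest fold change in a direction were named. Of 62703 identifiers, 42300 had a symbol. Whether reads were counted by strand is not given in the sources used here, and 19 members share exon bases with other genes of GENCODE release 29. Other filters, a pseudocount of 0.1, other libraries in the fit, the replicate block, the adjusted p, rescaling, the GC correction and leaving out libraries were tried.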

Additional observations from a re-analysis of the deposited data

How the results depend on the processing

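The number of members called, 7 in HG versus NG, 13 in si-FGF9 versus NG and 1 in HG+OE-FGF9 versus HG, changed with these settings. With the adjusted p under 0.05 as the criterion it was 16, 25 and 5, the last with 1 higher and 4 lower. With rescaling by the median of ratios it was 2 in HG and 14 in si-FGF9, there with 8 higher and 6 lower instead of 0 and 13. With the GC correction it was 1 in HG and 8 in si-FGF9, and the same counts, 1 and 8, with the GC correction together with the replicate block. With a pseudocount of 0.1 it was 2 in HG+OE-FGF9, where MITF was added. Leaving out 1 library at a time gave 3 to 9 in HG, the lowest without HG replicate 2 and the highest without HG replicate 3, which added MAP1LC3B (-1.17) and WIPI1 (-1.18). It gave 12 to 14 in si-FGF9 and 1 to 3 in HG+OE-FGF9, there 3 without HG replicate 2 or without HG+OE-FGF9 replicate 3, with 1 higher and 2 lower (MITF and LAMP2), and 2 without HG replicate 3. The cause was not tested. Averaging the closest pairs of libraries, NG replicates 2 and 3 and HG+OE-FGF9 replicates 1 and 2, an alternative chosen after seeing the data, gave 5, 14 and 1.

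The fit with the replicate block called 7, 13 and 1 members and changed no call among them. Correlations of the deviations of same-numbered libraries ran from -0.44 to 0.25, with 3 of 18 above 0.1, so that the numbers were not taken to pair the libraries. Of 1053 alternative values of the 22 members given by library, 905 kept their sign and their side of the criteria, 56 lost the call and 35 gained one. The sign turned in 57, all of them uncalled under both settings, with 15 after rescaling, 9 after the GC correction, 9 after that correction with the replicate block, 7 without HG replicate 3 and 4 or fewer under each other setting. With a TPM of at least 1 required in all 12 libraries, UVRAG was not tested. Since the depth is unknown, differences in low genes such as TFEB may lie under what these libraries can resolve.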
